A study of Homo sapiens with 20 samples.

Results

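The MACC1, MYEOV, VGLL3, HMGA2, ENC1, INPP4B, CTPS1 and B4GALT4 transcripts were followed in WT and GCN2KO keratinocytes before and after wounding. These 8 genes, of 57500 in the count tables, were selected on their measured rise in read counts after wounding in GCN2KO cells, and the size of the rise and the level from which it started were then compared between the genotypes. The rise in GCN2KO cells is therefore the ground of the choice and is given as a description with no test, and so are the start level in GCN2KO cells and the difference between the rises, which contain the same libraries. The response of WT cells to wounding, in libraries that the choice did not use, was tested. The genotype difference averaged over unwounded and wounded cells was tested as well. This average is not the difference that chose the genes, but it contains the same GCN2KO libraries. Their spread between replicates enters its p-values, which are therefore not free of the choice.

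RNA was sequenced from NTERT cells, an immortalized human keratinocyte line, in 4 groups of 5 libraries. WT cells carried a control guide RNA, and GCN2KO cells were an early-passage pool, not a clone, edited with CRISPR/Cas9 at EIF2AK4, the gene for GCN2. All cultures were differentiated into epithelial sheets, which were left unwounded or subjected to high-density wounding (HDW), a grid of scratches drawn with pipet tips, with RNA taken 6 h later. The libraries held 14083504 to 34611570 counts, and WT unwounded libraries (14083504 to 30505904) were shallower than WT HDW libraries (29320528 to 34611570). EIF2AK4 transcript was 4.84-fold lower in GCN2KO cells (log2 fold change −2.27, SE 0.041, adjusted p = 1.07e-22, averaged over wounding), with 4152 to 4555 normalized read counts in WT unwounded libraries and 806 to 962 in GCN2KO unwounded libraries. Summed normalized read counts of 7 keratinocyte markers (KRT5, KRT14, TP63, IVL, DSG3, CDH1 and KRT10) were 351922 to 362827 in WT cells left unwounded and 399449.5 to 425215 after HDW, and in GCN2KO cells they were 394349 to 466201 and 485615 to 523305. Those of 5 fibroblast markers were 667 to 1041, of 4 melanocyte markers 56.5 to 100.3 with TYR at 0, and of 3 endothelial markers 1.53 to 18.2 over all libraries. The 3 leukocyte markers summed to 1576 to 1813 in WT unwounded, 837 to 981 in WT HDW, 587 to 1208 in GCN2KO unwounded and 369 to 957 in GCN2KO HDW libraries, with PTPRC at 0 in 3 of the 4 groups. Single genes carried 2 of these sums. CD14 made up most of the leukocyte sum (means of 1683 in WT unwounded and 916 in WT HDW libraries). COL1A1 made up most of the fibroblast sum (mean of 892 in WT unwounded libraries). The keratinocyte sum moved with wounding and genotype, but its members did not move alike. Averaged over wounding 3 of the 7 were higher and 2 lower in GCN2KO cells (38.6% and 37.6% of all tested genes). Among the higher were the differentiation marker IVL (log2 1.89) and the basal marker KRT5 (log2 0.50). The lower were the basal markers KRT14 (log2 −0.81) and TP63 (log2 −0.48), so basal markers went both ways. These genes are named here after their values were seen. The part of these markers in the results was not tested. The study's methods have the cells plated in 5 replicates and count replicates as biological, so p-values measure the spread between replicate platings. In genotype comparisons, loss of GCN2 and any other difference between the edited pool and the control cells cannot be told apart. In bulk RNA a smaller share of cells with a transcript and less transcript per cell cannot be told apart.

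When a keratinocyte sheet is wounded, cells at the edge rebuild their actin cytoskeleton, loosen their matrix contacts and move as a sheet, and growth factor receptors, the ERK pathway and the YAP/TAZ-TEAD transcription factors respond within hours. GCN2 is an eIF2 kinase that senses uncharged tRNA, lowers bulk protein synthesis and directs translation and transcription toward stress-adaptive genes. The 8 genes do not form a pathway. Regulators of transcription and chromatin among them are MACC1, a protein linked to transcription of the MET receptor, VGLL3, a vestigial-like cofactor of TEAD transcription factors, and HMGA2, a chromatin protein that bends AT-rich DNA. INPP4B is a lipid phosphatase of the phosphoinositide pathway and ENC1 a BTB-kelch protein of the actin cytoskeleton and of ubiquitin ligases. CTPS1 makes CTP from UTP, B4GALT4 is a Golgi galactosyltransferase, and MYEOV is a gene near CCND1 that was found through chromosome rearrangements in myeloma and whose product has no established role.

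RefSeq promoter entries were matched for 5 of the 8 genes (MACC1, VGLL3, INPP4B, CTPS1 and B4GALT4), and the 250 bases upstream of the transcription start on GRCh38.p14 were examined. The stretches of VGLL3, MACC1 and B4GALT4 are shown because these genes stood out in the descriptions that follow, VGLL3 by the size of its rise in GCN2KO cells relative to WT, MACC1 by the clearest rise in GCN2KO cells, and B4GALT4 by its start level. Each is written in the direction of transcription and ends before the first base that GENCODE places in an exon of the gene, with matches to the searched motifs in capitals. The VGLL3 stretch is chr3:86991150-86991399 on the minus strand, the MACC1 stretch is chr7:20217405-20217634 on the minus strand, and the B4GALT4 stretch is chr3:119240947-119241128 on the minus strand.
VGLL3: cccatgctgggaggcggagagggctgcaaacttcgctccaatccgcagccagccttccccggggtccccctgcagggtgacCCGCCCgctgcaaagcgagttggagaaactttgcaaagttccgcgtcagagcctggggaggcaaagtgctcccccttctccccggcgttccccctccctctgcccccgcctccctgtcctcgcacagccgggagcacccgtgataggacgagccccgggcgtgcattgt
MACC1: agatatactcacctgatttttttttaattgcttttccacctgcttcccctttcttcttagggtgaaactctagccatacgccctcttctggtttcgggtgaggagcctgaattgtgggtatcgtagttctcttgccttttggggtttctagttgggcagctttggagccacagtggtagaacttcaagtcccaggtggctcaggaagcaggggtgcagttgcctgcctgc
B4GALT4: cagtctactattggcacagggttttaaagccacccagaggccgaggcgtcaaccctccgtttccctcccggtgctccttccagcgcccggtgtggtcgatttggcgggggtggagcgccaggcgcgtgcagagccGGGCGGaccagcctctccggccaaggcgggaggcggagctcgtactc

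These windows were searched on both strands for 7 motifs. The wound-responsive factors were represented by the AP-1 letters TGANTCA, the TEAD letters CATTCC and the ETS letters CCGGAAG. Stress and growth factors were represented by an ATF4-C/EBP element, searched as TTGCATC, and by the E-box, searched as CACGTG. Core promoter elements were the GC box, searched as GGGCGG, and the TATA box, searched as TATAAA. The VGLL3 window was GC-rich (67.6%) and held 1 GC box, on the strand opposite to transcription, 169 to 164 bases before the start. The B4GALT4 window (70.0% GC) held 3 GC boxes, of which the one at 115 to 110 bases before the start lies in the stretch shown. MACC1 had the lowest GC content of the 5 (49.2%) and held no match. CTPS1 (72.0% GC) held 4 GC boxes, but GENCODE places all 250 bases of its window in exons of the gene. INPP4B (70.8% GC) held TATA 31 to 26 bases before its start. It has 6 listed windows, of which the most upstream was used. GENCODE places the last 30 bases of that window in an exon, which takes in all but the first base of the TATA match. Over 35116 promoter windows of the same length, 42.6% held a GC box and 10.7% held TATA, with a median GC content of 58.0%. The AP-1, TEAD, E-box, ETS and ATF4-C/EBP letters, which occurred in 6.57%, 11.9%, 6.34%, 8.52% and 2.05% of all windows, were in none of these 5.

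The first question was whether the genes also rose in WT cells. All 8 were higher in WT HDW than in WT unwounded libraries by adjusted p, where 26.1% of 15348 tested genes were called higher, and the log2 fold changes ran from 0.25 for VGLL3 to 1.39 for MYEOV with a median of 0.83 (median over all tested genes −0.0024). MYEOV and INPP4B were also DE genes, with a log2 fold change of at least 1, as were 2.62% of tested genes. In 7 of the 8 every WT HDW library was above every WT unwounded library, a separation found in 18.1% of 16536 genes, and VGLL3 was the exception. In GCN2KO cells the genes held ranks 1, 5, 6 and 8 to 12 by p among 15791 tested genes, of which 11.9% were called higher, and 3 of them (MYEOV, MACC1 and VGLL3) were DE genes, as were 0.475% of tested genes. All 8 separated without overlap in GCN2KO cells (7.23% of genes), and these values are the choice itself. Of the 1851 genes called higher after HDW in GCN2KO cells and tested in both genotypes, 1072 (57.9%) were also called higher in WT cells, which was 27.1% of the WT calls.

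Genes downstream of ERK give a reference for the size of the wound response. Of 10 tested MAPK output genes 9 rose and 1 fell after HDW in WT cells, against 26.1% and 25.2% of all tested genes. In GCN2KO cells 7 rose and none fell, against 11.9% and 10.8%. The median log2 fold changes were 1.35 in WT and 0.69 in GCN2KO cells. The feedback genes DUSP6 and SPRY4 rose by log2 1.72 and 2.73 in WT and by log2 1.01 and 1.13 in GCN2KO cells. CCND1, on the same list, went the other way, with log2 1.02 in WT and 1.26 in GCN2KO cells. MACC1 and VGLL3 rose by log2 0.87 and 0.25 in WT and by 1.26 and 1.07 in GCN2KO cells. The latter 2 values are the ground of their choice, so they do not compare on equal terms with the MAPK output genes.

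**Figure D1:**
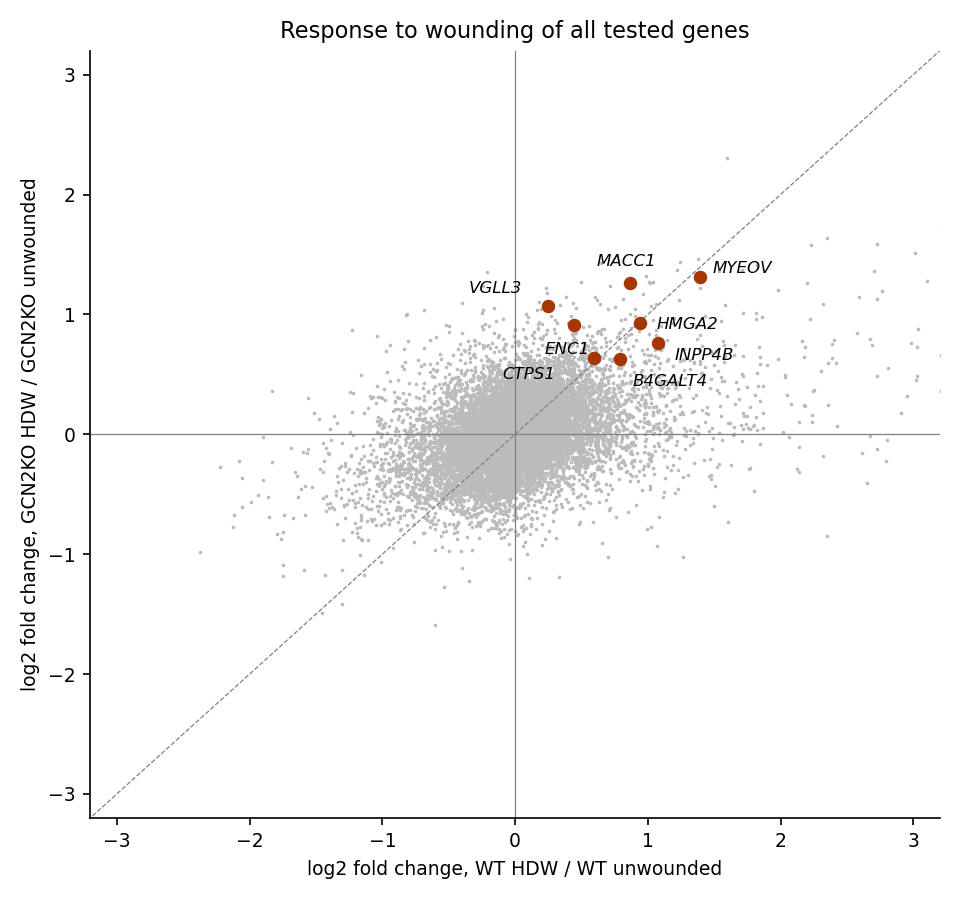
Log2 fold change after HDW in WT cells (x axis) against that in GCN2KO cells (y axis) for 14899 genes tested in both. The 8 genes studied are in brown, and equal change lies along the dashed line. Of the 14899 genes, 8 others lie beyond the axes and are not seen. VGLL3 (0.25 and 1.07), ENC1 (0.45 and 0.91) and MACC1 (0.87 and 1.26) sit above the line, INPP4B (1.08 and 0.76) below it, and the other 4 near it.

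The genotype difference averaged over wounding divided the genes. B4GALT4, MYEOV and MACC1 were higher in GCN2KO than in WT cells and HMGA2, ENC1, INPP4B, VGLL3 and CTPS1 were lower. Since 38.6% of 16536 tested genes were called higher and 37.6% lower in this comparison, 3 and 5 of 8 are no result about the genes as a group. Single genes did stand far from 0, with B4GALT4 2.02-fold higher (log2 1.02, SE 0.039) and HMGA2 2.59-fold lower (log2 −1.37, SE 0.055). The plot of normalized read counts by library shows each gene in all 4 groups.

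**Figure D2:**
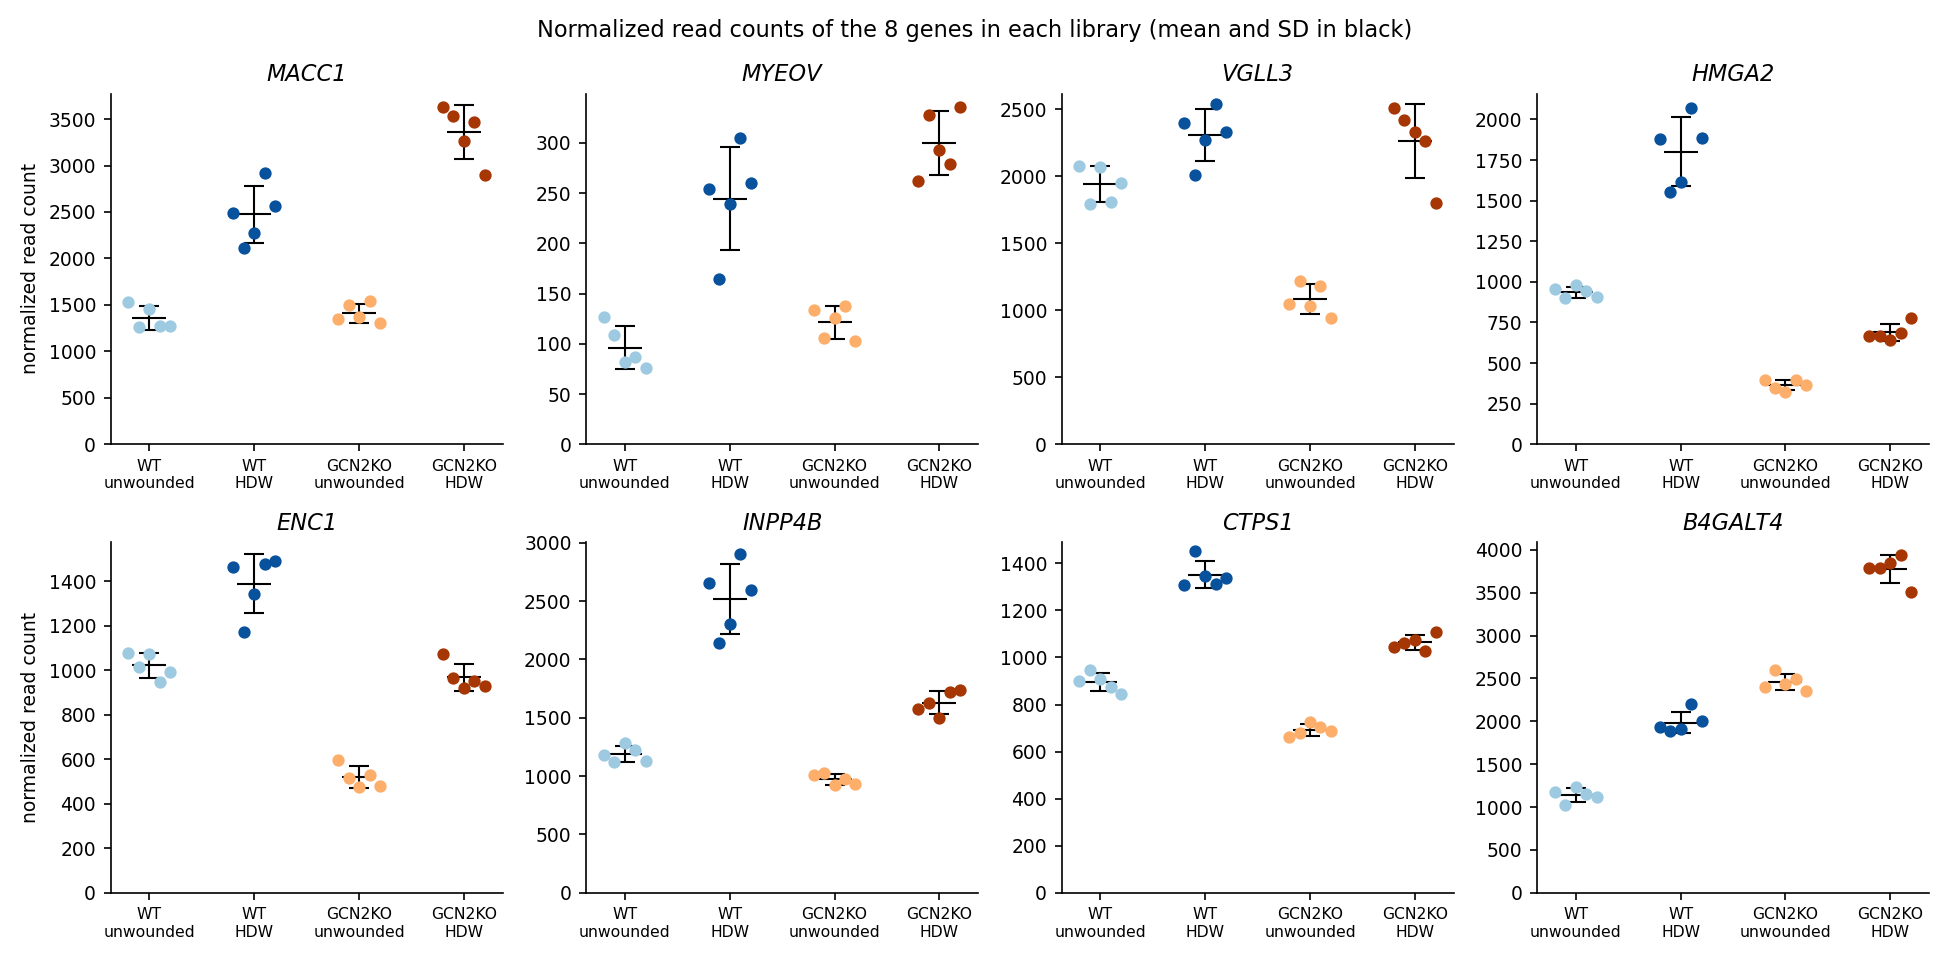
Normalized read counts (y axis, from 0) of the 8 genes in the 5 libraries of each group (points, replicates 1 to 5 from left to right), with the group mean and SD in black. In all 8 panels the GCN2KO HDW points lie above the GCN2KO unwounded points; HMGA2, ENC1, INPP4B and CTPS1 ended lower in GCN2KO than in WT HDW libraries and B4GALT4 ended higher.

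VGLL3 binds TEAD factors, as YAP and TAZ do, and it lies at chromosome 3, 86876388 to 86991149, on the minus strand. Its normalized read counts in replicates 1 to 5 were 2075, 1795, 2065, 1807 and 1950.0 in WT unwounded cells and 2393, 2009.8, 2273, 2535 and 2326 in WT HDW cells. In GCN2KO cells they were 1043, 1219, 1034, 1178 and 941 unwounded and 2505, 2416, 2328, 2262 and 1799 after HDW. The WT groups overlapped, with 23 of 25 pairs of libraries higher after HDW, the GCN2KO unwounded libraries were below all others, and the wounded groups overlapped (12 of 25 pairs higher in GCN2KO cells), with 2307 ± 193 in WT and 2262 ± 274 in GCN2KO cells (mean ± SD, n = 5). VGLL3 rose 1.19-fold in WT cells (log2 0.25, SE 0.059, adjusted p = 0.00234), and this call was kept when any 1 library was left out and when counts were thinned to the smallest library. In GCN2KO cells the rise was 2.11-fold (log2 1.07, SE 0.095) from a start 1.79-fold below WT (log2 −0.84, SE 0.079). The 2 rises differed by 0.81 on the log2 scale (SE 0.12), the largest difference among the 8 genes. The genotypes were −0.84 apart on this scale before wounding and −0.03 (SE 0.081) apart after it. Averaged over wounding VGLL3 was lower in GCN2KO cells (log2 −0.43, SE 0.058, adjusted p = 3.21e-07).

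Of 8 tested VGLL, TEAD and YAP/TAZ genes other than VGLL3, VGLL1 and TEAD4 rose after HDW in WT cells (log2 0.47 and 0.44), TEAD2 and TEAD3 fell (log2 −0.93 and −0.31), and YAP1, with a log2 fold change of −0.04, WWTR1, VGLL4 and TEAD1 did not pass. In GCN2KO cells, where 11.9% of genes were called higher and 10.8% lower, WWTR1, VGLL1, TEAD1 and TEAD4 rose (log2 0.41, 0.44, 0.55 and 0.48) and none fell. Averaged over wounding, 5 of the 8 were lower in GCN2KO cells, as were 37.6% of all tested genes, and the 5 included WWTR1, which encodes TAZ (log2 −0.70), and TEAD2 (log2 −0.97), and VGLL1 and TEAD1 were higher. Among 21 tested YAP/TAZ target genes, 12 rose and 3 fell after HDW in WT cells (26.1% and 25.2% of all tested genes). In GCN2KO cells 14 rose and none fell (11.9% and 10.8%). Their median log2 fold changes were 0.24 in WT and 0.50 in GCN2KO cells, with all-gene medians of −0.0024 and −0.00097. CCN1 and CCN2, matricellular proteins that are the usual readouts of YAP/TAZ-TEAD, rose in both genotypes, by log2 1.22 and 1.38 in WT and 1.37 and 1.46 in GCN2KO cells. F3 and NT5E rose by log2 1.39 and 1.05 in WT cells and by less in GCN2KO cells (log2 0.70 and 0.50). RBMS3 fell in WT cells (log2 −1.47) and did not pass in GCN2KO cells (log2 −0.29). Averaged over wounding 6 of the 21 target genes were higher and 12 lower in GCN2KO cells (38.6% and 37.6% of all tested genes).

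MACC1 carries an SH3 domain and lies at chromosome 7, 20134655 to 20217404, on the minus strand. In WT cells left unwounded MACC1 had 1528, 1259.8, 1459, 1274 and 1274 normalized read counts in replicates 1 to 5, and after HDW it had 2494, 2109, 2276, 2923 and 2568. The GCN2KO libraries held 1348, 1495, 1365, 1544 and 1306 unwounded and 3634, 3538, 3269, 3474 and 2899 after HDW. The unwounded groups overlapped, each wounded group was above its own unwounded group, and GCN2KO HDW was above WT HDW in 24 of 25 pairs of libraries, the exception being WT replicate 4 against GCN2KO replicate 5. The rise in WT cells was 1.82-fold (log2 0.87, SE 0.080, adjusted p = 3.34e-07). In GCN2KO cells it was 2.40-fold (log2 1.26, SE 0.076), from a start that differed from WT by 0.06 on the log2 scale (SE 0.076). The rises differed by 0.39 (SE 0.11), and the genotypes were 0.44 apart after wounding (2474 ± 309.7 in WT and 3363 ± 292 in GCN2KO HDW cells, mean ± SD). Averaged over wounding MACC1 was 1.19-fold higher in GCN2KO cells (adjusted p = 3.61e-04).

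MET, the receptor tyrosine kinase for hepatocyte growth factor with which MACC1 is linked, went the other way in WT cells, where it fell by 0.17 on the log2 scale (adjusted p = 3.01e-04), and it rose by log2 0.33 in GCN2KO cells (adjusted p = 0.00718). Its level averaged over wounding was lower in GCN2KO cells (log2 −0.40). Over the 11 tested genes of the MET axis, 5 rose and 4 fell after HDW in WT cells (26.1% and 25.2% of all tested genes), and 4 rose and none fell in GCN2KO cells (11.9% and 10.8%). MST1R, the sister receptor of MET, and ST14, the protease matriptase, rose in WT cells (log2 0.44 for each). CD44, a co-receptor of MET, and PLXNB1, a plexin that associates with it, were lower in GCN2KO cells averaged over wounding (log2 −0.90 and −1.17), whereas the protease inhibitors SPINT1 and SPINT2 were higher (log2 0.43 and 0.54).

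HMGA2 is a fetal and tumor-associated architectural protein whose mRNA is a target of let-7 microRNAs, and it lies at chromosome 12, 65824460 to 65966291, on the plus strand. The WT libraries held 954, 899, 981, 942 and 906 normalized read counts unwounded and 1877, 1554, 1616, 2072 and 1884 after HDW (replicates 1 to 5). For GCN2KO the values were 394, 343, 321, 397 and 364 unwounded and 668, 669, 641, 685 and 779 after HDW. No 2 groups overlapped, and after wounding every GCN2KO library was still below every WT unwounded library. HMGA2 rose 1.92-fold in WT cells (log2 0.94, SE 0.068, adjusted p = 2.90e-08) and 1.90-fold in GCN2KO cells (log2 0.93, SE 0.084), so the rises differed by −0.02 (SE 0.11) while the start level was 2.56-fold lower in GCN2KO cells (log2 −1.36, SE 0.074). The GCN2KO HDW mean was 73.5% of the WT unwounded mean and 38.2% of the WT HDW mean. Averaged over wounding the difference was −1.37 on the log2 scale (SE 0.055, adjusted p = 8.40e-17), the largest of the 8 genes in size.

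Of 9 listed relatives and let-7 axis genes of HMGA2, IGF2BP1, LIN28A, LIN28B and TRIM71 did not pass the filter and were not tested. The 5 tested genes all rose after HDW in WT cells, against 26.1% of all tested genes. Their median was log2 0.41, with IGF2BP2 at only 0.09, HMGA1 at 0.84 and ARID3B at 1.01. In GCN2KO cells 2 of the 5 rose, against 11.9% of all tested genes. There HMGA1, the paralog of HMGA2, did not pass (log2 0.17, adjusted p = 0.0948), whereas IGF2BP2 rose (log2 0.25). Averaged over wounding 4 of the 5 were lower in GCN2KO cells and none was higher (37.6% and 38.6% of all tested genes), among them HMGA1 (log2 −0.56) and IGF2BP3, an RNA-binding protein (log2 −0.72).

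INPP4B removes a phosphate from PI3K-derived phosphatidylinositol bisphosphate and lies at chromosome 4, 142023160 to 142847432, on the minus strand. Unwounded WT cells held 1184, 1122, 1284, 1227 and 1128 normalized read counts of INPP4B in replicates 1 to 5, and wounded WT cells 2657, 2143, 2303, 2907 and 2591. Unwounded GCN2KO cells held 1008, 1024, 921, 973 and 929 and wounded GCN2KO cells 1572, 1626, 1498, 1719 and 1734. No 2 groups overlapped, and GCN2KO cells were lower than WT cells both before and after wounding. INPP4B was the gene whose rise was smaller in GCN2KO cells by the widest margin, 1.69-fold (log2 0.76, SE 0.066) against 2.11-fold in WT cells (log2 1.08, SE 0.071, adjusted p = 9.90e-09), a difference of −0.33 (SE 0.098). It started 1.22-fold lower (log2 −0.29, SE 0.063) and ended 1.55-fold lower (log2 −0.63, SE 0.074). Averaged over wounding it was lower in GCN2KO cells (log2 −0.46, SE 0.049, adjusted p = 5.99e-09).

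Of 22 tested genes of the PI3K and phosphoinositide phosphatase families, 4 rose and 6 fell after HDW in WT cells. The shares of all tested genes were 26.1% and 25.2%. In GCN2KO cells 3 rose and 2 fell, near the shares of 11.9% and 10.8% over all tested genes. The paralog INPP4A did not pass in WT cells (log2 0.11, adjusted p = 0.0616) and rose in GCN2KO cells (log2 0.34, adjusted p = 0.00471). The regulatory subunit gene PIK3R3 fell in both genotypes (log2 −0.84 and −0.32), with 17.5% of its exonic bases shared with a readthrough transcript on the same strand.

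ENC1 binds actin and serves as a substrate adaptor of CUL3 ubiquitin ligases, and it lies at chromosome 5, 74627406 to 74641424, on the minus strand. Normalized read counts of ENC1 in replicates 1 to 5 were 1077, 1015, 1074, 949 and 991 in unwounded and 1465, 1174, 1341, 1477 and 1489 in wounded WT cells. The corresponding GCN2KO values were 596, 517, 474, 530.3 and 481 and 1074, 965, 921, 949.6 and 931. GCN2KO HDW libraries overlapped WT unwounded libraries, so wounded GCN2KO cells stood at the level of unwounded WT cells (94.8% of its mean), and no other 2 groups overlapped. ENC1 rose 1.36-fold in WT cells (log2 0.45, SE 0.063, adjusted p = 2.66e-05) and 1.88-fold in GCN2KO cells (log2 0.91, SE 0.078), with a difference between the rises of 0.46 (SE 0.10). The start was 1.96-fold lower in GCN2KO cells (log2 −0.97, SE 0.076) and the end 1.43-fold lower (log2 −0.52, SE 0.068), and the groups stayed separate. Averaged over wounding ENC1 was lower in GCN2KO cells (log2 −0.75, SE 0.051, adjusted p = 1.66e-12). Among 10 BTB-kelch and ligase partner genes 1 rose and 5 fell after HDW in WT cells (26.1% and 25.2% of all tested genes), and none rose and 1 fell in GCN2KO cells (11.9% and 10.8%). CUL3 did not pass in either genotype (log2 −0.02 in WT and 0.02 in GCN2KO cells).

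CTPS1 catalyzes the final step of CTP synthesis and lies at chromosome 1, 40979300 to 41012565, on the plus strand. The unwounded WT libraries (replicates 1 to 5) gave 900.3, 946, 909, 873 and 846 normalized read counts and the wounded ones 1307, 1451, 1348, 1314 and 1338. In GCN2KO cells the unwounded libraries gave 661, 678, 725, 703 and 687 and the wounded ones 1044, 1059.9, 1076, 1028 and 1109.9. No 2 groups overlapped, and the order from low to high was GCN2KO unwounded, WT unwounded, GCN2KO HDW and WT HDW. CTPS1 rose 1.51-fold in WT cells (log2 0.60, SE 0.042, adjusted p = 2.12e-08) and 1.55-fold in GCN2KO cells (log2 0.63, SE 0.058), a difference of 0.03 (SE 0.068). The start was 1.29-fold lower in GCN2KO cells (log2 −0.37, SE 0.061) and the end 1.27-fold lower (log2 −0.34, SE 0.042). Averaged over wounding the difference was −0.36 on the log2 scale (SE 0.034, adjusted p = 8.67e-10).

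Of 19 tested genes of pyrimidine nucleotide synthesis 9 rose and 2 fell after HDW in WT cells (26.1% and 25.2% of all tested genes; median log2 0.16), and 3 rose and 1 fell in GCN2KO cells (11.9% and 10.8%; median log2 −0.11). CAD, the multifunctional enzyme of the first steps, rose in both genotypes (log2 1.05 in WT and 0.70 in GCN2KO cells), and so did UCK2, a uridine-cytidine kinase (log2 0.16 and 0.36). The paralog CTPS2 passed in neither genotype (log2 −0.04 and −0.02), and averaged over wounding it was lower in GCN2KO cells (log2 −0.87). In that comparison 11 of the 19 were lower and 4 higher (37.6% and 38.6% of all tested genes), the latter including the uridine phosphorylase UPP1 (log2 2.12) and the thymidine kinase TK1 (log2 1.32).

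B4GALT4 adds galactose to N-acetylglucosamine in the Golgi, including the sulfated sugar of keratan sulfate chains, and it lies at chromosome 3, 119211732 to 119240946, on the minus strand. B4GALT4 had 1178, 1028, 1238, 1153 and 1113 normalized read counts in replicates 1 to 5 of unwounded WT cells and 1932, 1883, 1907, 2197 and 2006 in wounded WT cells. It had 2406, 2595, 2432, 2499 and 2354 in unwounded and 3792, 3785, 3848, 3945 and 3509.6 in wounded GCN2KO cells. No 2 groups overlapped, and unwounded GCN2KO cells already stood above wounded WT cells, the only gene of the 8 with that order. The start was 2.16-fold higher in GCN2KO cells (log2 1.11, SE 0.064). B4GALT4 rose 1.73-fold in WT cells (log2 0.79, SE 0.052, adjusted p = 9.38e-09) and 1.55-fold in GCN2KO cells (log2 0.63, SE 0.059), with a difference of −0.18 (SE 0.077). Averaged over wounding it was 2.02-fold higher in GCN2KO cells (adjusted p = 4.10e-17).

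Of 10 tested galactosyltransferase and keratan sulfate genes 4 rose and 3 fell after HDW in WT cells (26.1% and 25.2% of all tested genes), and of 11 tested in GCN2KO cells 2 rose and 1 fell (11.9% and 10.8%). B4GALT6 rose in WT cells (log2 0.67), while B4GALT1 and B4GALT3 did not pass (log2 −0.08 and −0.02). Averaged over wounding B4GALT5 was lower in GCN2KO cells (log2 −0.82), as was B3GNT7, the enzyme that extends keratan sulfate (log2 −2.78), whereas the sulfotransferase CHST2 and the UDP-galactose transporter SLC35A2 were higher (log2 1.20 and 0.81).

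MYEOV lies at chromosome 11, 69294151 to 69341682, on the plus strand, upstream of CCND1, the gene for cyclin D1. It had the fewest normalized read counts of the 8 genes in every group, not corrected for its short exonic length, and its normalized read counts in replicates 1 to 5 were 127, 109, 82.1, 86.4 and 76.2 in WT unwounded cells and 254, 164, 239.7, 305 and 260.4 in WT HDW cells. In GCN2KO cells they were 134, 106, 125, 138 and 103 unwounded and 262, 328, 293, 279 and 336 after HDW. Wounded and unwounded libraries of each genotype did not overlap, whereas the genotypes overlapped at both states. MYEOV had the largest rise in each genotype, 2.63-fold in WT cells (log2 1.39, SE 0.17, adjusted p = 4.63e-06) and 2.48-fold in GCN2KO cells (log2 1.31, SE 0.11), with a difference of −0.09 (SE 0.21) and the widest error of the 8 genes. It started 1.31-fold higher in GCN2KO cells (log2 0.38, SE 0.15), and averaged over wounding the difference was 0.34 (SE 0.10, adjusted p = 0.00435). Of 6 tested genes that flank it, 5 rose in WT cells (26.1% of all tested genes) and 5 rose in GCN2KO cells (11.9%). CCND1 rose by log2 1.02 in WT and 1.26 in GCN2KO cells, and the chloride channel gene ANO1 by log2 2.40 and 0.79. Averaged over wounding CCND1, unlike MYEOV, was lower in GCN2KO cells (log2 −0.85).

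Set side by side, the 8 genes fell into different combinations of start and rise. VGLL3 and ENC1 combined a lower start with a larger rise in GCN2KO cells, HMGA2 and CTPS1 a lower start with a rise within 0.03 of that in WT on the log2 scale, and INPP4B a lower start with a smaller rise. MACC1 began within 0.06 of WT and rose further, MYEOV began slightly higher and rose by a similar amount with a wide error, and B4GALT4 began higher and rose less. Before wounding 5 genes were lower in GCN2KO than in WT libraries without overlap (25.6% of genes), B4GALT4 was higher (25.4%) and MACC1 and MYEOV overlapped, and after wounding HMGA2, ENC1, INPP4B and CTPS1 were lower (28.5%), B4GALT4 was higher (27.3%) and the other 3 overlapped. Wounded GCN2KO cells exceeded the unwounded WT level without overlap for MACC1, MYEOV, INPP4B, CTPS1 and B4GALT4, overlapped it for VGLL3 and ENC1, and stayed below it for HMGA2, with 28.7% of genes separated in each direction. Only B4GALT4 was higher in unwounded GCN2KO than in wounded WT libraries without overlap (26.1% of genes).

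**Figure D3:**
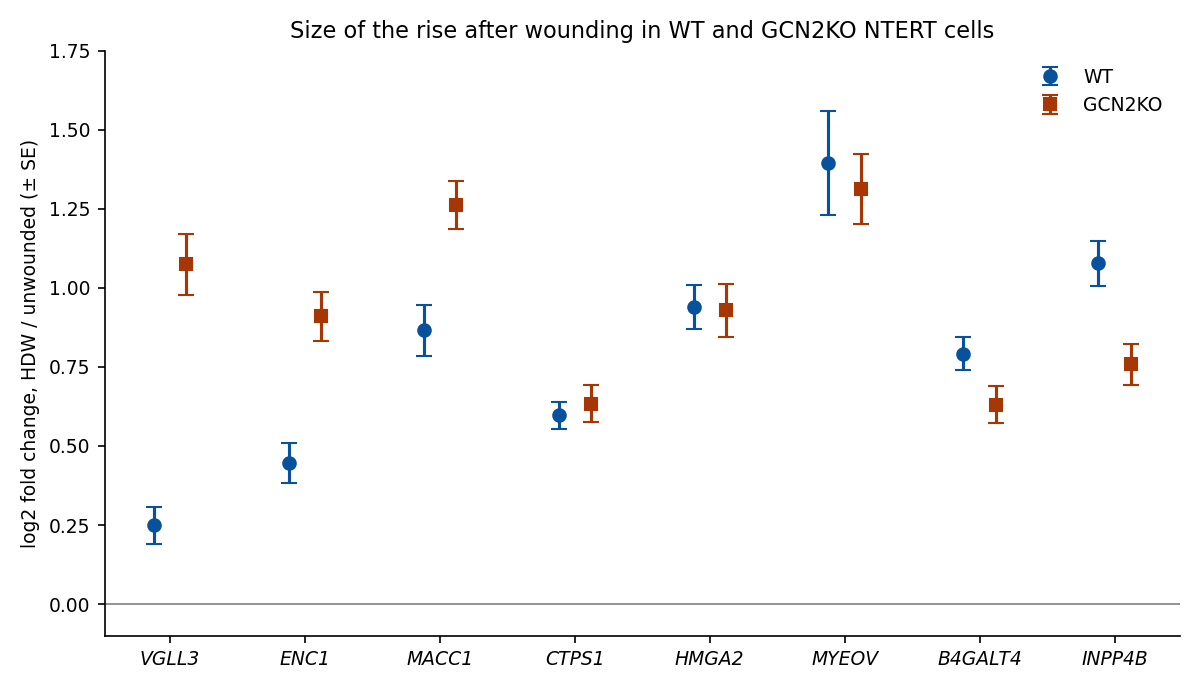
Log2 fold change of HDW over unwounded cells (y axis, points with SE) for the 8 genes in WT (circles) and GCN2KO cells (squares), ordered by the difference between the genotypes. VGLL3 is at the left with the larger rise in GCN2KO cells (1.07 against 0.25) and INPP4B at the right with the smaller one (0.76 against 1.08).

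**Figure D4:**
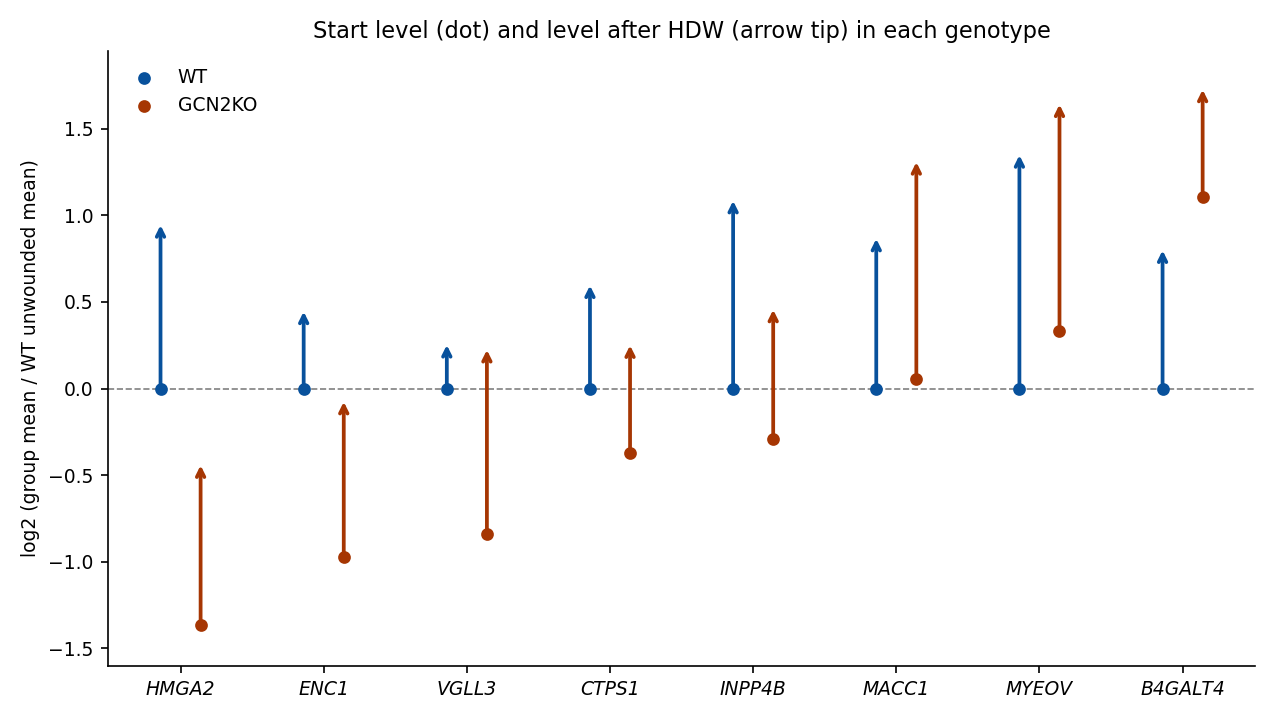
Group means relative to the WT unwounded mean on the log2 scale (y axis), with a dot at the unwounded level and an arrow tip at the level after HDW for WT and GCN2KO cells, ordered by start level in GCN2KO cells. The GCN2KO arrow of HMGA2 ends below 0, that of ENC1 close to 0, and that of B4GALT4 begins above the tip of the WT arrow.

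Levels between genes were compared as counts per kilobase of exon in a library scaled to 1000000 counts. The length takes in every annotated exon of a gene, from 2654 bases for MYEOV to 15070 for HMGA2. It can exceed the length of the transcripts present, so the order between genes depends on the annotation. In WT unwounded cells B4GALT4 (5.68), VGLL3 (5.29), MACC1 (4.77) and ENC1 (4.29) led, each overlapping the next, followed by INPP4B (2.84) and CTPS1 (2.60), which overlapped, and by HMGA2 (2.16) and MYEOV (1.26), which did not overlap a neighbor. In GCN2KO HDW cells B4GALT4 (18.8), MACC1 (11.8) and VGLL3 (6.17) were separate at the top, ENC1 (4.06), MYEOV (3.92) and INPP4B (3.89) overlapped, and HMGA2 was last (1.59). HMGA2 was also last in GCN2KO unwounded cells (0.839), below MYEOV (1.59), the reverse of their order in WT unwounded cells. Without the division by length HMGA2 stood above MYEOV in GCN2KO unwounded cells (means of 364 and 121 normalized read counts). Between 0 and 6.37% of the exonic bases of the 8 genes are shared with another gene, most for MYEOV and 4.29% for ENC1. Among the other genes named, B4GALT3 (28.7%), DUSP6 (28.6%), VGLL4 (23.8%), IGF2BP3 (17.8%), PIK3R3, SPINT2 (15.3%), ANO1 (14.5%), CCN2 (11.9%), TEAD2 (10.7%), CCND1 (10.4%), YAP1 (10.1%), WWTR1 (9.05%), UCK2 (8.75%) and MST1R (6.78%) share more, mostly with genes on the other strand, and since no strand setting is stated their values are uncertain to that extent.

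For 7 of the 8 genes the closest other expression pattern over the 4 groups is given, sought among 12352 genes with a mean of at least 50 counts, as the smallest root mean square difference of centered log2 group means. CCN1 was nearest to both MACC1 (0.135) and MYEOV (0.0890), CXCL8, a chemokine that attracts neutrophils, to INPP4B (0.0243), SH3TC2 to CTPS1 (0.0320) and PVR, a nectin-like adhesion receptor, to B4GALT4 (0.0514). TTF2, a transcription termination factor, was nearest to VGLL3 (0.0925) and the nucleolar protein gene MYBBP1A to ENC1 (0.0745). PVR followed B4GALT4 in level, with 1326 ± 130.0 normalized read counts before and 2421 ± 349 after HDW in WT cells, and 3053 ± 298 before and 4283 ± 355 after HDW in GCN2KO cells (mean ± SD, n = 5). These patterns were matched on all 20 libraries, so the closeness is a description.

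WT HDW replicate 2 was the lowest of its group for 7 of the 8 genes and the highest for CTPS1, and replicate 4 was the highest for 6. GCN2KO HDW replicate 5 was the lowest of its group for MACC1, VGLL3 and B4GALT4 and the highest for MYEOV, HMGA2, INPP4B and CTPS1. With each library left out in turn, the log2 rise in WT cells stayed between 0.21 and 0.29 for VGLL3, between 0.80 and 0.92 for MACC1 and between 1.31 and 1.51 for MYEOV, and the difference between the rises stayed between 0.77 and 0.89 for VGLL3, 0.33 and 0.45 for MACC1 and −0.39 and −0.28 for INPP4B. Differences near 0 depended on single libraries. That between the rises of MYEOV ran from −0.21 without WT HDW replicate 2 to −0.00093 without WT HDW replicate 4, that of CTPS1 from 0.0056 without WT unwounded replicate 2 to 0.051 without WT HDW replicate 2, and that of HMGA2 from −0.074 without WT HDW replicate 2 to 0.029 without WT HDW replicate 4, being above 0 also without GCN2KO unwounded replicate 1 or 4 or GCN2KO HDW replicate 3. The start of MACC1 in GCN2KO relative to WT cells ran from 0.028 without GCN2KO unwounded replicate 4 to 0.097 without WT unwounded replicate 1, and that of MYEOV from 0.30 to 0.48. After wounding the genotype difference of VGLL3 was 0.0053 without WT HDW replicate 4 and 0.047 without GCN2KO HDW replicate 5, against −0.03 with all libraries, and that of MYEOV was 0.18 without WT HDW replicate 2, against 0.30.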

How the data were processed

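RNA-seq reads from 20 NTERT libraries were trimmed (Trimmomatic), aligned to GRCh38 (STAR) and counted on exons (featureCounts) by the authors, per the paper and the submitters' processing notes. The deposited values are raw counts of uniquely mapped reads per Ensembl gene, with no normalization or filter, and the annotation release and strand setting are not given in the sources used here. Of 57500 gene IDs 40907 were paired with a symbol, including the 8 genes studied, and positions and exonic lengths were taken from GENCODE release 44 on GRCh38.

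Groups were compared on the deposited counts by quasi-likelihood tests of edgeR 4.0.16 (R 4.3.3; glmQLFit, glmQLFTest; TMM; filterByExpr with a minimum count of 10 and a minimum total of 15), each on the 10 libraries of its 2 groups. The average over wounding and the difference between the rises used all 20. A gene was called where its p, adjusted by Benjamini-Hochberg over all tested genes, was 0.05 or less, and it was a DE gene where it also changed by 1 or more on the log2 scale. SE is the size of the log2 fold change divided by the square root of F. Normalized read counts are counts divided by the TMM library size relative to its mean. The 250 upstream bases came from RefSeq promoters on GRCh38.p14.

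The 8 genes and the gene lists were chosen with earlier results of these data known. Other genes named are EIF2AK4, the nearest pattern to each gene, and, in each list, the paralogs and partners marked in it and up to 2 higher and 2 lower genes of smallest adjusted p in WT HDW against WT unwounded and in the average over wounding, and 2 genes that this rule names are not reported here. Tables were made with Python 3.11.15 and pandas 2.3.3, and plots with matplotlib 3.10.9. As alternatives, single libraries were left out, counts were thinned, the filter was dropped or raised to a mean of 50 counts, all 20 libraries were fitted together, replicate number was made a block, TMM was replaced by DESeq2 1.42.0 size factors or by library size, and the test by that of DESeq2.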

Additional observations from a re-analysis of the deposited data

Results flagged for a closer look

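CTPS1 in WT HDW replicate 2 stood apart from its group, with 1451 normalized read counts against 1307 to 1348 in the other 4 libraries, a gap of 0.716 of the range of the group. With 5 libraries per group 32 groups of values were examined in this way and 1 stood apart, and chance alone gives about 1 in 20. The same library held the lowest value of its group for the other 7 genes. Without it the call of CTPS1 in WT cells was kept.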

How the results depend on the processing

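No call of the 8 genes in WT HDW against WT unwounded or in the average over wounding was lost or reversed under any alternative run. With single libraries left out, 640 of 640 fitted values of the 8 genes kept direction and call or, where no test was made, moved by less than the spread between replicates (1 SD), as did 373 under the other alternatives. The 3 exceptions were all of CTPS1, whose rise in GCN2KO cells was 0.57 with thinned counts and whose difference between the rises was 0.09 with library size alone and −0.03 with thinned counts. Counts over all genes moved more. When a change of 1 or more on the log2 scale was also required, 402 genes were higher and 238 lower in WT HDW (4013 and 3865 by adjusted p alone), 75 and 31 in GCN2KO HDW (1880 and 1706), 1260 and 1261 for genotype in unwounded cells, 1126 and 1242 in wounded cells, 1316 and 1298 averaged over wounding, and 192 and 355 for the difference between the rises. These numbers depended on the filter, with 601 and 397 in WT HDW and 114 and 85 in GCN2KO HDW without a filter, and 250 and 121 and 37 and 3 at a mean of at least 50 counts. With library size alone the difference between the rises was called higher for 2477 and lower for 1510 genes (1851 and 2075 with TMM). For HDW in GCN2KO cells one fit of all 20 libraries called 2840 lower. Leaving out single libraries gave 1183 to 2332 higher and 887 to 2185 lower, with 1245 and 972 without GCN2KO unwounded replicate 5, 1187 and 950 without GCN2KO HDW replicate 2, 1183 and 887 without GCN2KO HDW replicate 3, and 1074 lower without GCN2KO HDW replicate 1, so the background share of GCN2KO calls is uncertain. The cause was not tested. Replicates also differed more in the GCN2KO fit of HDW, with a biological coefficient of variation of 0.108, against 0.0587 in the WT fit. The shares of genes called in the 2 genotypes were therefore not reached at equal spread.

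Libraries of the same number share only a number, since their deviations from the group means correlated at −0.24 to 0.30 for HDW in WT and −0.61 to 0.05 for HDW in GCN2KO libraries. A block for replicate number gave, for HDW in GCN2KO cells, 1239 higher and 882 lower calls, HDW in WT cells 3973 and 3821, and no call of the 8 genes changed. MYEOV, with 76.2 to 336 normalized read counts, had the fewest counts of the 8 genes.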
